A study of Drosophila melanogaster with 6 samples.

Results

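Probes for noncoding RNAs on a Drosophila melanogaster gene expression array were followed in ovaries in which 2 signalling pathways had been switched on in the follicle cells. A probe was included when the array's own annotation gave it a RefSeq accession of the NR_ type, which marks a transcript with no protein product, and 274 of 32162 noncontrol probes met this rule. They stood for 230 accessions, of which 195 could be paired with a RefSeq gene (185 genes, 229 probes). The other 35 accessions, with 45 probes, are given by accession only.

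The study asked which transcripts respond in the ovary when the JAK/STAT and EGFR pathways are activated outside their normal domain. Ectopic expression ovaries (n = 3) carried GAL80TS/+ ; GR1-GAL4/UAS-Unpaired, UAS-lambdatorpedo, which adds the JAK/STAT ligand and an activated EGFR. Control ovaries (n = 3, both groups as separate biological replicates) carried GAL80TS/+ ; GR1-GAL4/TM6B, with the same driver and temperature-sensitive repressor, no UAS transgene, and a third-chromosome balancer that the ectopic expression females lacked. Females of both groups were 5 to 8 days old, came from crosses kept at 18 °C, had yeast for 2 days and were held at 29 °C for 16 h before dissection. GR1-GAL4 acts in follicle cells, whereas RNA came from whole ovaries, which also hold germline and muscle, so a change confined to the driven cells is diluted. Cy5 carried the RNA of each of these 6 preparations and Cy3 carried wild-type OreR ovary RNA from yeast-fed females kept at 25 °C. The value of a probe is the log2 ratio of Cy5 over Cy3, so 0 is the level of the wild-type reference, and a difference is the ectopic expression mean minus the control mean.

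Noncoding RNAs do many jobs in a cell. Small nuclear RNAs form the core of the spliceosome, small nucleolar RNAs (snoRNAs) guide the modification and cleavage of ribosomal RNA, 7SL RNA scaffolds the particle that brings secretory proteins to the membrane, and RNase MRP RNA is part of an enzyme that trims ribosomal RNA. Long noncoding RNAs include the precursors from which microRNAs are cut, the host transcripts that carry snoRNAs in their introns, antisense transcripts that run across protein-coding genes, the roX RNAs that coat the male X chromosome, and Hsromega, a nuclear RNA induced by heat that gathers RNA-binding proteins in omega speckles. The probes' labelling reaction was primed on poly(A) tails, which mature small RNAs of the spliceosome, the nucleolus, RNase MRP and 7SL lack, and how this bears on their values was not tested.

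Fewer of the noncoding probes gave a signal than of the array as a whole. In Cy5, 111, 116 and 107 of the 274 probes were well above background on the ectopic expression arrays (39.1% to 42.3%), against 109, 110 and 189 on the control arrays (39.8%, 40.1% and 69.0%). Over all noncontrol probes the share was 51.7% to 55.4% on the ectopic expression arrays and 53.5%, 54.7% and 75.8% on the control arrays. Control replicate 3 thus stood apart for the noncoding probes as for the rest. In Cy5, 63 of the 274 probes (23%) were well above background on that array only, against 16.7% of all probes. The reference in Cy3 had 102 to 115 probes well above background per array (37.2% to 42%, against 50.9% to 55.9% of all probes), with 114 on the array of control replicate 3. By the rule that all arrays of a group must carry the flag, 98 probes (35.8%) were detected in ectopic expression ovaries and 101 (36.9%) in control ovaries, against 49.3% and 50.8% of all probes. On all 6 arrays and in both channels, 87 probes (31.8%) were detected, against 44.8% of all probes. In neither channel of any array, leaving aside Cy5 of control replicate 3, were 126 probes (46.0%) detected, against 32.9% of all probes. No probe was saturated, and 2 probes lacked a value free of outlier flags on at least 1 array.

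**Figure D1:**
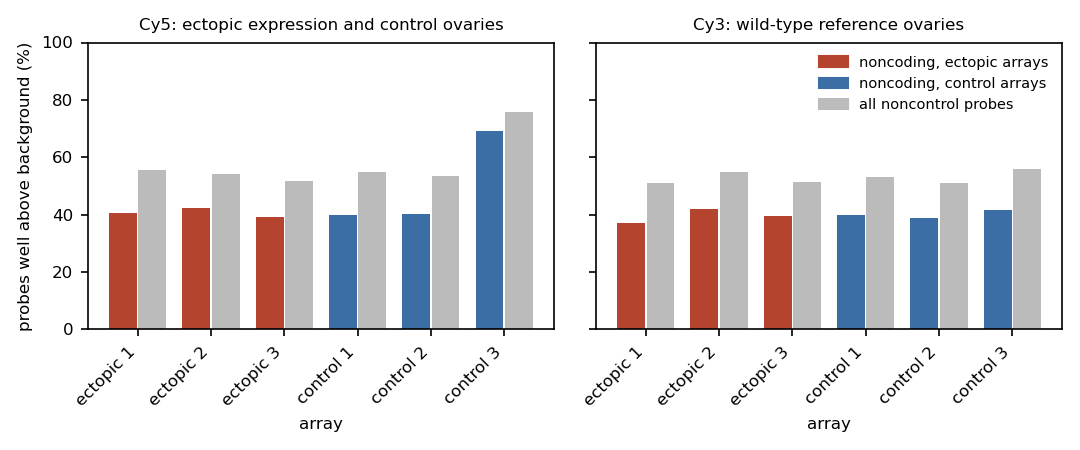
Percentage of probes well above background on each array, in Cy5 (left, ectopic expression arrays then control arrays) and in the Cy3 reference of the same arrays (right). Coloured bars are the 274 noncoding RNA probes, grey bars all 32162 noncontrol probes, and control replicate 3 stands at 69.0% and 75.8% in Cy5.

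Detection differed by kind of RNA. All 5 small nuclear RNA probes, all 5 snoRNA or scaRNA probes (a scaRNA guides the modification of spliceosomal RNAs) and both probes for RNase MRP RNA and 7SL RNA were detected on all 6 arrays. So were 4 of 5 Hsromega probes, 5 of 6 snoRNA host probes and 6 of 12 probes for microRNA hosts or precursors in Cy5. A gene was counted as a host when a snoRNA or microRNA gene lay within its span, with strand not known. Hsromega, whose span holds mir-4951, was kept as a class of its own and not counted as a host. Of the remaining named antisense RNAs, 14 of 68 probes were detected in Cy5 on all 6 arrays, and of the remaining named long noncoding RNAs 31 of 120. Among the unnamed accessions the number was 22 of 45. None of the 6 roX probes was detected on all arrays of a group. One antisense RNA, asRNA:CR43615, was well above background on 3 of 3 control arrays and 0 of 3 ectopic expression arrays, yet its normalized difference was 0.05 ± 0.09 (SE) on the log2 scale, so the flag alone does not give a difference. It was chosen after its values were seen and lies across dec, a gene for an eggshell protein.

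Between the groups, 25 of the 274 probes (9.12%) were higher and 8 (2.92%) were lower in ectopic expression ovaries at a limma adjusted p of 0.05, against 6.47% and 5.55% of all 32162 probes. With a fold change of at least 2 as well, 3 noncoding probes (1.09%) were higher and 4 (1.46%) lower, against 1.29% and 0.824% of all probes. The median difference over the noncoding probes was 0.02, and over all probes it was -0.0032. The number of calls and their split depended on the scaling: with each array centred on its median in place of loess and quantiles, 5 probes were higher and 7 lower, and with Feature Extraction's own log ratio 13 were higher and 6 lower. None of the 30 largest called probes changed sign under any of 18 alternatives. Leaving out an array gave 13 to 25 higher (13 without ectopic expression replicate 1, 14 without control replicate 2, 15 without ectopic expression replicate 2) and 8 to 14 lower (14 without ectopic expression replicate 3). For 44 probes the lowest ectopic expression array exceeded the highest control array (16.1%, against 14.0% of all probes) and for 22 the reverse held (8.03%, against 13.6%). In whole ovaries, fewer cells of a type and less RNA per cell cannot be told apart.

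Most of these calls came from probes with signal throughout. Among the 87 probes detected in both channels on all arrays, 21 were higher and 5 lower, or 29.9%, against 23.9% of the 14410 probes of the whole array with the same detection. Their median difference was 0.14, while that of the 14410 was 0.00. None of the 126 probes without signal passed, against 0.0662% of such probes on the whole array. The 61 probes in between had 4 higher and 3 lower, or 11.5%, against 5.86% of the 7172 such probes of the whole array. Of the 7 probes past 2-fold, 3 were among these 61.

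The largest increase was that of NR_073832, an accession without a gene name here, on both of its probes. Probe A_09_P144075 had log2 ratios of 0.75, 0.93 and 1.08 in ectopic expression ovaries and -1.32, -1.12 and -1.42 in control ovaries. Its second probe, A_09_P024256, had 0.74, 0.75 and 1.11 in ectopic expression ovaries and -1.05, -1.04 and -1.14 in control ovaries. The groups were far apart on both probes, above the reference in all ectopic expression ovaries and below it in all control ovaries. The differences were 2.21 ± 0.11 (SE; 4.62-fold, limma adjusted p = 2.47e-05) and 1.94 ± 0.11 (3.84-fold, limma adjusted p = 4.02e-05). In Cy5 both probes were well above background on 3 of 3 ectopic expression arrays and on only 1 and 2 of 3 control arrays, so the control level lay near the limit of detection. With no offset in the background correction or with Feature Extraction's ratio the fold was larger, up to 4.74 and 4.51 on the log2 scale.

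The largest decrease was that of asRNA:CR43463, a transcript on chromosome arm 2L that RefSeq places across Pgant35A, which encodes an enzyme that adds sugars to serine and threonine of secreted proteins. Its log2 ratios were -3.0, -2.90 and -2.09 in ectopic expression ovaries and -0.75, -0.99 and -0.26 in control ovaries. Every ectopic expression array lay below every control array, and within each slide the difference was -2.25, -1.91 and -1.83. The fit gave -2.0 ± 0.26 (SE), 4.0-fold lower, with a limma adjusted p of 0.00171, and with Feature Extraction's ratio the size was -3.41 with an adjusted p of 0.0547. Both arrays of replicate 3 were higher than the other arrays of their group. Probe positions were not used here, and no probe of Pgant35A could be named, so the antisense and the coding transcript could not be set side by side.

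A pair of further long noncoding RNAs fell by more than 2-fold, neither with a role known here. For lncRNA:CR34046 on 3R, probe A_09_P001161 gave -1.24, -1.19 and -0.75 in ectopic expression ovaries and 0.29, 0.26 and 0.22 in control ovaries. Its other probe, A_09_P218280, gave -0.88, -0.59 and -0.62 in ectopic expression ovaries and 0.33, 0.26 and 0.42 in control ovaries. The gene thus lay slightly above the wild-type reference in control ovaries and clearly below it in ectopic expression ovaries, with differences of -1.32 ± 0.13 (limma adjusted p = 0.000457) and -1.03 ± 0.10 (limma adjusted p = 0.000381). Of the ectopic expression arrays, only 1 of 3 had the first of these probes well above background, while the second was detected on all. The first lost its call with Feature Extraction's ratio (-3.37, adjusted p = 0.0725), and the second was below 2-fold without ectopic expression replicate 1 (-0.94). For lncRNA:CR43837 on the X the log2 ratios were -1.12, -1.35 and -1.20 in ectopic expression ovaries and -0.41, -0.01 and -0.18 in control ovaries. Its difference of -1.03 ± 0.11 (2.04-fold lower, limma adjusted p = 0.000861) stood close to the 2-fold limit, and it dropped below that limit without ectopic expression replicate 2, without control replicate 2 and with loess only.

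**Figure D2:**
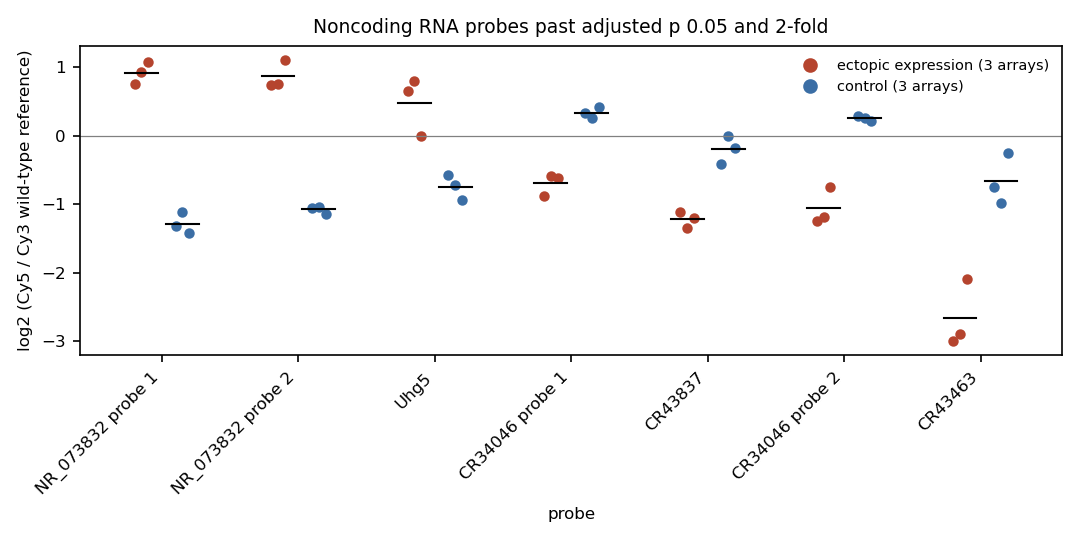
Log2 ratio to the wild-type reference of the 7 noncoding RNA probes past an adjusted p of 0.05 and 2-fold, with the 3 ectopic expression arrays left of the 3 control arrays for each probe and a line at each group's mean. The groups do not overlap for any of these probes, and the spread within a group is widest for Uhg5 and CR43463.

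Of the snoRNA host genes, Uhg5 and Uhg2 rose. A snoRNA host is transcribed like a messenger RNA, its spliced exons are not translated, and its introns release snoRNAs. Uhg5, whose span holds 11 snoRNA genes, all but the orphan snoRNA:Or-CD4 named as methylation guides for 18S or 28S ribosomal RNA, gave 0.65, 0.80 and 0.00 in ectopic expression ovaries and -0.57, -0.72 and -0.94 in control ovaries. Ectopic expression replicate 3 was well below the other ectopic expression arrays, yet still above all control arrays. The difference was 1.23 ± 0.20 (SE; 2.34-fold, limma adjusted p = 0.00509), and the adjusted p was 0.103 under median centring (difference 1.00) and 0.0608 with Feature Extraction's ratio (difference 1.28). Uhg2, with 4 snoRNA genes in its span including U14 copies needed for the cleavage of the ribosomal RNA precursor, showed the same order of arrays: 0.67, 0.90 and 0.17 in ectopic expression ovaries and -0.22, -0.29 and -0.33 in control ovaries. Its difference was 0.86 ± 0.16 (1.82-fold, limma adjusted p = 0.0107), but 4 of 18 alternatives ended the call, with adjusted p of 0.061 without ectopic expression replicate 1 and up to 0.181 under median centring.

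Uhg3, which carries 3 snoRNA genes and was chosen after its values were seen, did not pass the test on either probe, with differences of 0.14 ± 0.09 and 0.07 ± 0.07 (limma adjusted p = 0.400 and 0.702). It was below the reference on all 6 arrays, at -0.32, -0.18 and -0.39 in ectopic expression ovaries and -0.47, -0.34 and -0.50 in control ovaries on the first probe. Of the 6 probes of genes with a snoRNA gene in their span, 2 were higher, 0 lower and 4 not past the threshold. Of all probes, 6.47% were higher and 5.55% lower. These 6 probes include that of the antisense transcript asRNA:CR31144, and whether each gene carries its snoRNA in an intron was not tested. Whether Uhg5 and Uhg2 differed from Uhg3 was not tested.

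Of the 5 snoRNA and scaRNA probes, snoRNA:Psi28S-291, a guide for pseudouridine in 28S ribosomal RNA that lies within the ribosomal protein gene RpL3, was the 1 past the threshold. It gave 0.34, 0.52 and 0.19 in ectopic expression ovaries and -0.23, -0.17 and 0.00 in control ovaries. The difference of 0.48 ± 0.11 (1.40-fold, limma adjusted p = 0.0196) lost its call when any 1 of ectopic expression replicates 1 and 2 and control replicates 1 and 2 was left out, with adjusted p between 0.0625 and 0.0856, and under 3 scaling alternatives, with adjusted p up to 0.12. A longer transcript that RefSeq places across the same gene, asRNA:CR31144, had a difference of 0.11 ± 0.08 (limma adjusted p = 0.503).

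The U3 snoRNA directs the first cuts of the ribosomal RNA precursor and was represented by a probe for each of 2 copies, which are nearly alike in sequence, so each probe may read both. For snoRNA:U3:9B the log2 ratios were 0.15, 0.18 and 0.11 in ectopic expression ovaries and -0.47, -0.45 and 0.05 in control ovaries (difference 0.43 ± 0.14, limma adjusted p = 0.0810). For snoRNA:U3:54Aa they were 0.37, 0.50 and -0.09 in ectopic expression ovaries and -0.20, -0.23 and -0.03 in control ovaries (difference 0.41 ± 0.15, limma adjusted p = 0.123). Replicates 1 and 2 were 0.57 to 0.73 apart within their slides on both probes, whereas on the slide of replicate 3 the differences were 0.06 and -0.06. Without control replicate 3 the first reached an adjusted p of 0.00376, and without ectopic expression replicate 3 the second reached 0.00376. The remaining probes, scaRNA:MeU5-C46 and snoRNA:Psi28S-2566, had differences of 0.27 ± 0.09 and -0.02 ± 0.11 (limma adjusted p = 0.0930 and 0.954).

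RNase MRP RNA and 7SL RNA showed the same split by slide. RNaseMRP:RNA was at 1.05, 1.14 and 0.64 in ectopic expression ovaries and 0.15, 0.07 and 0.74 in control ovaries, so the groups overlapped through control replicate 3. Its difference of 0.62 ± 0.19 had a limma adjusted p of 0.0742, and within slides it was 0.90, 1.07 and -0.10. Leaving out either array of that slide brought the adjusted p to 0.0142 (without control replicate 3) or 0.0203 (without ectopic expression replicate 3). 7SLRNA:CR32864 was below the reference on every array, at -0.60, -1.01 and -1.03 in ectopic expression ovaries and -1.19, -1.64 and -0.83 in control ovaries. The difference was 0.34 ± 0.20 (limma adjusted p = 0.389), and 0.59, 0.63 and -0.20 within slides.

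Spliceosomal RNAs did not pass. The U1 probes, for copies on 2L and 3R, had differences of 0.28 ± 0.17 and 0.07 ± 0.15, and the U2 probe snRNA:U2:34ABb had -0.04 ± 0.11. U1 and U2 recognise ordinary introns, and their genes come in near-identical copies that a probe may not separate. U11 and U12 do the same for the rare minor introns, and gave -0.19 ± 0.14 and -0.49 ± 0.21. The U12 ratios were 0.03, -0.43 and 0.42 in ectopic expression ovaries and 0.21, 0.58 and 0.70 in control ovaries, which overlap. Over these 5 probes the smallest limma adjusted p was 0.202, that of U12.

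**Figure D3:**
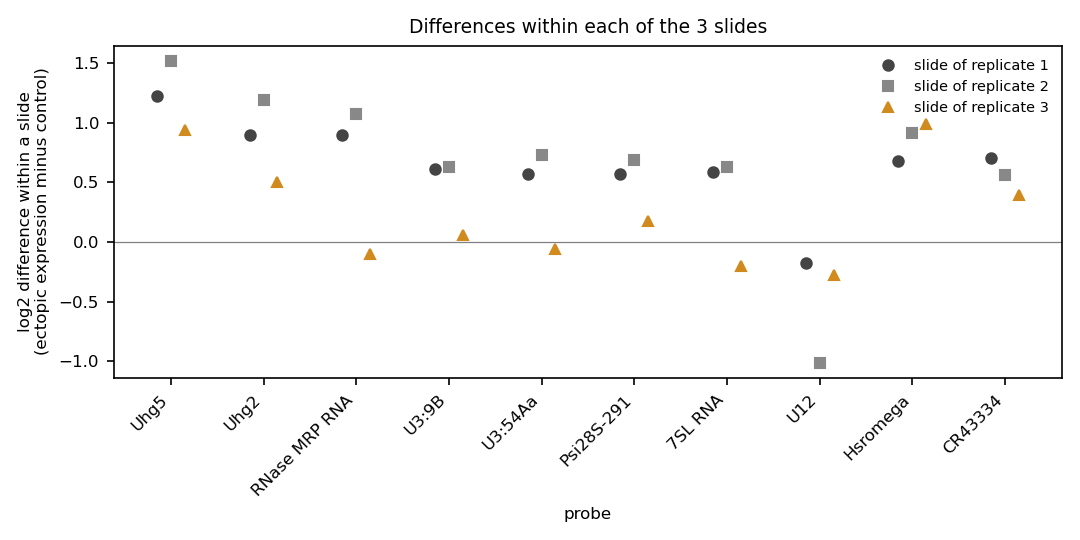
Log2 difference of ectopic expression minus control within each of the 3 slides (circles, squares and triangles for replicates 1, 2 and 3) for 10 probes of named noncoding RNAs. For RNase MRP RNA, U3 and 7SL RNA the slide of replicate 3 lies near 0 and the other 2 lie above 0.5, whereas Uhg5, Uhg2, Hsromega and CR43334 are above 0 on all 3 slides.

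Hsromega had 5 probes from 3 accessions, and 3 of them rose. Probe A_09_P191035 gave 0.85, 0.87 and 0.99 in ectopic expression ovaries and 0.18, -0.04 and 0.00 in control ovaries, a difference of 0.86 ± 0.09 (1.81-fold, limma adjusted p = 0.000538). Probe A_09_P180885 of the same accession, NR_002067, gave 0.75, 0.82 and 1.03 in ectopic expression ovaries and 0.20, -0.09 and 0.05 in control ovaries (difference 0.81 ± 0.10, limma adjusted p = 0.00175). On these probes the control ovaries were near the wild-type reference, and the ectopic expression ovaries were above it on every array. Both groups had spent 16 h at 29 °C and the reference females were kept at 25 °C. Temperature, genotype and dye cannot be told apart in the ratios to the reference, whereas temperature and dye were the same in both groups.

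For the accession NR_002068, probe A_09_P171415 gave 0.97, 0.79 and 1.05 in ectopic expression ovaries and 0.29, 0.24 and 0.49 in control ovaries (difference 0.60 ± 0.10, limma adjusted p = 0.00622). The second probe of that accession, A_09_P192815, was detected on all arrays as well, but at 0.18, 0.31 and 0.51 in ectopic expression ovaries and 0.27, 0.14 and 0.25 in control ovaries the groups overlapped (difference 0.12 ± 0.10, limma adjusted p = 0.586). The probe of the third accession, NR_074035, was not well above background in ectopic expression ovaries (0.24 ± 0.09, limma adjusted p = 0.159). Under median centring none of the 5 probes passed, with differences of 0.56 to 0.62 and adjusted p of 0.139 to 0.311 for the 3 that had risen. Probe A_09_P171415 also lost its call with no background offset (adjusted p = 0.066) and with Feature Extraction's ratio (adjusted p = 0.0691). Whether the probes differ from each other was not tested.

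MicroRNA precursors and hosts, with Hsromega left aside, were read by 12 probes for 10 genes, of which 4 probes were higher and 1 lower. Over the whole array, 6.47% of probes were higher and 5.55% lower. lncRNA:CR43334 spans mir-ban, the gene of the growth-promoting and apoptosis-suppressing bantam microRNA. Its ratios were 0.71, 0.71 and 0.71 in ectopic expression ovaries and 0.01, 0.16 and 0.32 in control ovaries (difference 0.55 ± 0.09, 1.47-fold, limma adjusted p = 0.00566). The call held under all 18 alternatives, with adjusted p between 0.00307 and 0.0437. These array probes read the long transcript, and the mature microRNA was not measured.

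lncRNA:CR43314, which spans mir-bft, the microRNA gene behind the bereft sensory bristle phenotype, was at 0.48, 0.87 and 0.46 in ectopic expression ovaries and 0.01, -0.05 and 0.03 in control ovaries. That is a difference of 0.61 ± 0.12 (1.52-fold, limma adjusted p = 0.0112), and 0.58 with an adjusted p of 0.0556 without control replicate 2. lncRNA:CR43650 spans mir-8, a regulator of growth and insulin signalling in the fat body, and gave 0.39, 0.36 and 0.19 in ectopic expression ovaries and -0.06, -0.08 and -0.17 in control ovaries. Its difference was 0.42 ± 0.08 (limma adjusted p = 0.0135), which did not pass without ectopic expression replicate 1, ectopic expression replicate 2 or control replicate 2 (adjusted p of 0.0713, 0.0521 and 0.0527), nor under median centring (0.109).

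lncRNA:CR31044 spans mir-279 and mir-996. miR-279 is known in the ovary as a limit on JAK/STAT signalling in the follicle cells from which border cells form. On probe A_09_P220515 the ratios were 0.44, 0.46 and 0.07 in ectopic expression ovaries and 0.01, -0.19 and -0.22 in control ovaries (difference 0.46 ± 0.12, limma adjusted p = 0.0427), and leaving out ectopic expression replicate 1 or 2 or any control array ended the call, with adjusted p between 0.0577 and 0.168, as did 3 scaling alternatives, with adjusted p up to 0.337. On the other probe, from another accession of the gene, they were 0.48, 0.61 and 0.48 in ectopic expression ovaries and 0.37, 0.08 and 0.35 in control ovaries (difference 0.26 ± 0.10, limma adjusted p = 0.142). The Cy3 reference of that probe was well above background on only 1 of 6 arrays.

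The 1 microRNA host that fell was lncRNA:CR43836, a long X-linked transcript whose span holds mir-31b and overlaps 4 coding genes, rdgA, CG10962, CG12662 and Nost. It was at -0.32, -0.38 and -0.30 in ectopic expression ovaries and 0.04, 0.03 and 0.08 in control ovaries. The groups were tight and apart, and the difference was -0.39 ± 0.07 (1.31-fold lower, limma adjusted p = 0.00825). Under median centring it was -0.40 with an adjusted p of 0.255.

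The other probes of this kind did not pass. lncRNA:CR43459, which spans mir-277 and mir-34, had a difference of 0.24 ± 0.10 (limma adjusted p = 0.176). Its Cy3 reference was well above background on 0 of 6 arrays. Not well above background on any ectopic expression array were the mir-125 precursor, lncRNA:iab8 of the Bithorax Complex with mir-iab-4 and mir-iab-8 in its span, lncRNA:CR43626 with mir-282 and both probes of asRNA:CR17025 with mir-252, and their differences lay between -0.17 and 0.09.

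**Figure D4:**
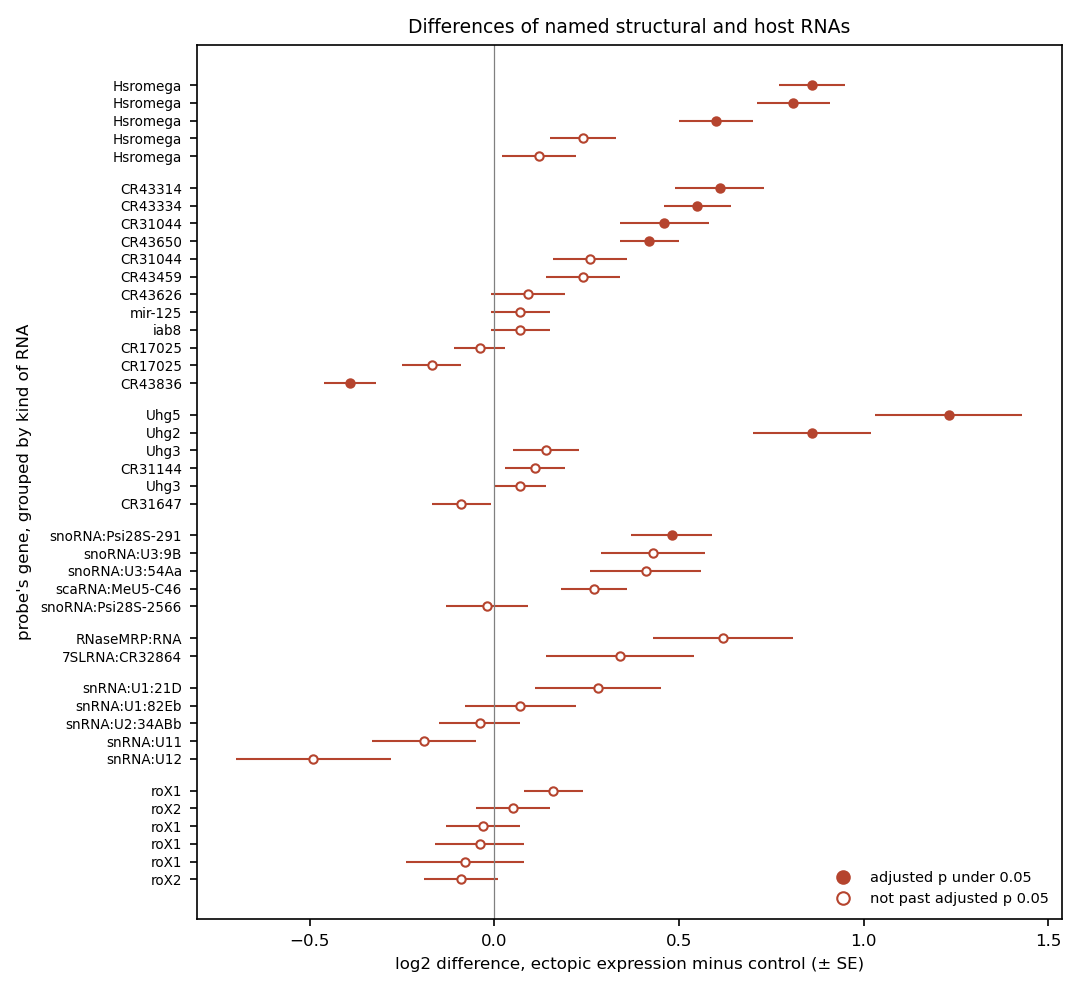
Log2 difference of ectopic expression minus control with its standard error (n = 3 arrays a group) for each probe of 7 kinds of named noncoding RNA, in the order Hsromega, microRNA hosts and precursors, snoRNA hosts, snoRNAs and scaRNAs, RNase MRP and 7SL RNA, small nuclear RNAs and roX. Filled points passed an adjusted p of 0.05, and all of them but CR43836 are above 0.

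The roX RNAs, roX1 with 4 probes and roX2 with 2, direct dosage compensation to the X chromosome in males. Across the 6 probes the differences lay between -0.09 and 0.16, the smallest limma adjusted p was 0.307, and 0 probes were well above background on all arrays of a group or in Cy3 on all arrays. A difference between the groups was not detectable at this signal. The Y-linked Su(Ste) repeats, which silence the Stellate genes in testes, had a probe each for 2 copies of a family of near-identical members, so what a probe reads is uncertain. Su(Ste):CR42418 was well above background on all 6 arrays in both channels, at 0.03, 0.07 and 0.19 in ectopic expression ovaries and -0.06, 0.02 and 0.08 in control ovaries, while Su(Ste):CR42406 was detected on 0 of 3 ectopic expression and 1 of 3 control arrays. Their differences were 0.09 ± 0.08 and 0.06 ± 0.07 (limma adjusted p = 0.640 and 0.754), and they were chosen after their values were seen.

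Few of the long noncoding RNAs and antisense RNAs outside these classes passed, and most of their probes lacked signal on at least 1 array. Of 120 other long noncoding RNA probes, 5 were higher and 3 lower, and of 68 other antisense RNA probes 1 was higher and 1 lower. Over the whole array, 6.47% of probes were higher and 5.55% lower. As 31 of the 120 and 14 of the 68 were detected in Cy5 on all 6 arrays, a probe that did not pass does not show that its RNA was the same in both groups. The largest rise was that of lncRNA:CR44042 on 2R, which was at 1.49, 1.41 and 0.97 in ectopic expression ovaries and 0.26, 0.24 and 0.46 in control ovaries. Its difference of 0.97 ± 0.14 (1.96-fold, limma adjusted p = 0.0029) was just under the 2-fold limit, and passed it without ectopic expression replicate 3 and without control replicate 3, while under median centring it was 0.88 with an adjusted p of 0.0732.

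lncRNA:CR42549, which RefSeq places across the gene mura on 3R, was at 0.89, 1.00 and 0.94 in ectopic expression ovaries and 0.31, 0.21 and 0.33 in control ovaries, with little spread in either group (difference 0.66 ± 0.07, limma adjusted p = 0.000925). asRNA:CR32252, across CG43367 on 3L, was at 0.57, 0.57 and 0.52 in ectopic expression ovaries and -0.14, -0.16 and -0.03 in control ovaries (difference 0.66 ± 0.07, limma adjusted p = 0.000799). lncRNA:CR31781 on 2L had a difference of 0.46 ± 0.07 (limma adjusted p = 0.00445), with ectopic expression ovaries between 0.16 and 0.20 and control ovaries between -0.33 and -0.21. The groups did not overlap for any of these 3 genes. Under median centring lncRNA:CR42549 fell short, with a difference of 0.44 and an adjusted p of 0.355, and lncRNA:CR31781 had an adjusted p of 0.0547.

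lncRNA:CR42862 on 3L, which lies across CG33229, had probes for 2 transcripts, and the probe of 1 of them passed. The 1 probe of NR_037746 was at 0.98, 0.60 and 0.82 in ectopic expression ovaries and 0.11, -0.01 and -0.21 in control ovaries (difference 0.83 ± 0.12, 1.78-fold, limma adjusted p = 0.00292). All 4 probes of NR_048204 were also detected on all 6 arrays in Cy5, and their differences were 0.04, 0.04, 0.10 and 0.10, with limma adjusted p between 0.662 and 0.902. The probe of NR_037746 lost its call under median centring (0.71, adjusted p = 0.241) and with Feature Extraction's ratio (0.76, adjusted p = 0.0883). The difference between the transcripts was not tested.

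More than 1 probe was available for 42 genes or unnamed accessions, counting each accession with no gene as its own. All probes passed for 3 of them (lncRNA:CR34046, NR_073832 and NR_002478), some for 4 (lncRNA:CR42862, Hsromega, lncRNA:CR31044 and, named after its values were seen, lncRNA:CR43685) and none for 35. Where all passed, their differences were within 0.29 of each other, and where some passed, the widest spread was 0.79, that of lncRNA:CR42862. Where none passed it was 0.32.

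Of the 45 probes without a gene name, 9 were higher (8 accessions) and 3 lower (2 accessions), together 26.7%. Of all probes, 6.47% were higher and 5.55% lower. NR_002478 fell on both probes. These were at -0.80, -0.48 and -0.36 in ectopic expression ovaries against 0.28, 0.24 and 0.53 in control ovaries, and at -0.67, -0.48 and -0.38 in ectopic expression ovaries against 0.29, 0.18 and 0.25 in control ovaries. The differences were -0.89 ± 0.13 and -0.75 ± 0.09 (limma adjusted p = 0.00294 and 0.00119), and on the ectopic expression arrays the probes were well above background on 1 and 2 of 3. With Feature Extraction's ratio the second had an adjusted p of 0.0504. NR_073764 was at -0.87, -0.61 and -0.99 in ectopic expression ovaries and -0.04, -0.10 and 0.04 in control ovaries (difference -0.79 ± 0.11, limma adjusted p = 0.00216). NR_004042, higher in ectopic expression ovaries, was below the reference in both groups, at -0.63, -0.66 and -0.92 in ectopic expression ovaries and -1.27, -1.17 and -1.42 in control ovaries (difference 0.55 ± 0.10, limma adjusted p = 0.0108). Its call was lost under 6 of 18 alternatives, among them without ectopic expression replicate 1 (adjusted p = 0.0592), and the difference went down to 0.19 with Feature Extraction's ratio and the adjusted p up to 0.427 under median centring.

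Against the wild-type reference, most of the 274 probes were near 0. Since dyes were not swapped, each ratio also holds any preference of the probe for a dye, and genotype, temperature and dye cannot be told apart in it, so the ratios are described with no test. The median was 0.01 in ectopic expression and 0.00 in control ovaries. In ectopic expression ovaries 1 probe was at least 2-fold above the reference and 6 at least 2-fold below it, and in control ovaries the numbers were 1 and 7. The share above was 0.365% in both groups, against 1.87% and 0.665% of all probes, and the share below was 2.19% and 2.55%, against 1.46% and 0.634% of all probes. The log2 ratios that the authors deposited gave the same counts.

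The lowest ratio was that of asRNA:CR43767 on 2L, which lies across Tango14. It was at -4.20, -3.84 and -4.17 in ectopic expression ovaries and -3.85, -3.95 and -4.01 in control ovaries. The reference channel was well above background on all 6 arrays, whereas Cy5 was so on 0 of 3 ectopic expression and 2 of 3 control arrays. This puts the Cy3 signal at least 14.8-fold above the Cy5 signal of ectopic expression ovaries. As dyes were not swapped, it is a bound on signals and not on RNA levels. That bound sets the mean of Cy3 against the higher of the probe's Cy5 signal and the dimmest signal counted as well above background on each array, after normalization between channels. The groups themselves did not differ past the threshold (-0.13 ± 0.11, limma adjusted p = 0.564). asRNA:CR42871 on 3L was likewise low in both, at -1.06, -1.19 and -0.99 in ectopic expression ovaries and -1.27, -1.27 and -1.18 in control ovaries. The highest control mean was that of asRNA:CR44030 on chromosome 4, across fuss, with 0.90, 1.22 and 0.67 in ectopic expression ovaries and 1.17, 1.17 and 1.11 in control ovaries. These 3 were chosen after their values were seen.

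**Figure D5:**
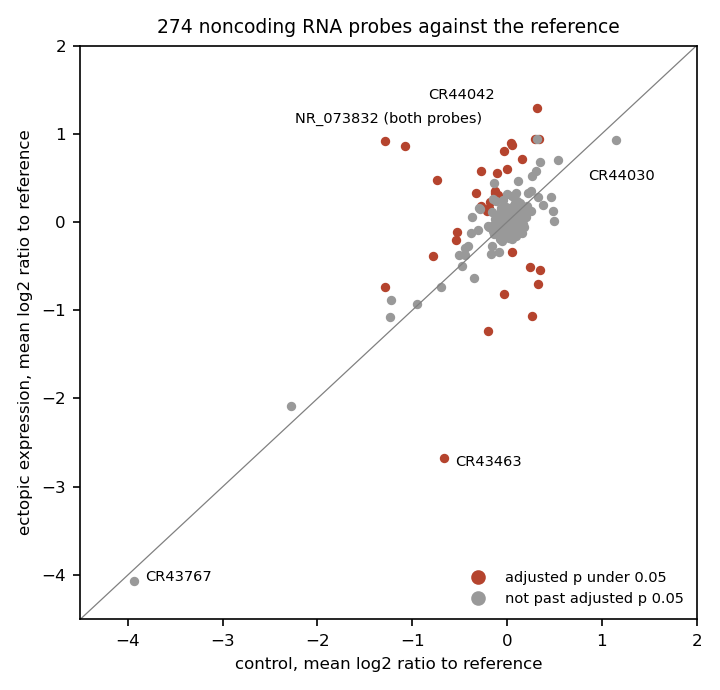
Mean log2 ratio to the wild-type reference of the 274 noncoding RNA probes in ectopic expression ovaries (vertical axis) and control ovaries (horizontal axis), with the line of equal values. Red points passed an adjusted p of 0.05 between the groups. asRNA:CR43767 lies at -4.07 and -3.94, near the line, and asRNA:CR43463 at -2.67 and -0.67, well below it.

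The UAS transgenes and the TM6B balancer sit on the third chromosome, and 12 of the 99 probes for noncoding genes on 3L or 3R passed (12.1%; 10 higher, 2 lower), against 9 of 130 other named probes (6.92%). Of all probes on the array, 6.47% were higher and 5.55% lower at this threshold. The X had 2 of 39 (0 higher, 2 lower) and the second chromosome 7 of 78 (6 higher, 1 lower). Any effect of the transgenes and any effect of the balancer cannot be told apart on these arrays.

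Same-numbered arrays of both groups shared a slide, and 5 noncoding probes were more than 0.5 higher and 2 more than 0.5 lower on the arrays of replicate 3 than on the rest, or 2.57% against 1.56% of all probes. Of these 7 probes, 2 had passed between the groups. They were Uhg5 and asRNA:CR43463. The ovary label was not checked through marker genes. With the names used here, 0 genes of the lists drawn up for germline, follicle cells, muscle, hemocytes, fat body and testis had a named probe. The same was true of the genes that act with these RNAs (the roX-binding MSL complex, the snoRNA particle core and the microRNA pathway). Only 494 probes (1.54% of the array) were paired with exactly 1 gene here, whereas the study itself named many genes from these arrays.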

How the data were processed

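RNA from 3 ectopic expression and 3 control ovary preparations was labelled with Cy5 and hybridised with a Cy3 wild-type reference on 6 two-colour arrays. The authors deposited Feature Extraction 11.0.1.1 output with median intensity and local background per spot, not normalized, flags, and a log10 ratio. They also deposited log2 ratios, rounded to 2 decimals, made with limma by normexp, loess and quantile steps, in the order of the scanner files' spots.

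Here limma 3.58.1 in R 4.3.3 applied normexp (offset 50), loess and quantile normalization, without control spots and with outlier spots set to missing. Spots were averaged by probe. Benjamini-Hochberg adjustment ran over 32162 probes, with a threshold of 0.05. A probe with several spots was detected when most of its spots were flagged well above background. The procedure was tested on simulated ratios. The number of arrays limits the precision. Members, lists and alternatives were chosen with earlier results of these data known. Named were up to 30 probes past the threshold by size, preset well-known RNAs, and further probes of both. Other members of the small RNA and host classes were added after their values were seen. Names came from the RefSeq table of Release 6 by accession, and its spans only show which genes overlap. No sequences are shown.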

Additional observations from a re-analysis of the deposited data

How the results depend on the processing

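Of 540 refits of the 30 largest called probes over 18 alternatives, 460 kept direction and side of the threshold, 80 lost the call and 0 changed sign. The 3 probes higher by 2-fold became 5 with no normexp offset and 8 with Feature Extraction's ratio. The 4 lower became 7 with no offset. At any fold, the 25 higher became 13 with no offset, 5 with median centring and 13 with Feature Extraction's ratio. Over all probes, Feature Extraction's ratio gave 718 higher (main 415), spots not averaged gave 401 lower (main 265), and median centring gave 366 higher and 334 lower. Detection in all control arrays, 101 probes, became 193 for at least 1 array and 155 with the weaker positive-and-significant flag. Without 1 array each, 2-fold calls were 3 to 5 higher and 3 to 5 lower, calls at any fold were 13 to 25 higher and 8 to 14 lower, all-probe calls were 356 to 543 higher and 235 to 331 lower, and detection was 98 to 104 in ectopic expression and 101 to 109 in control arrays. For lncRNA:CR42862, 3 probes of NR_048204 that had not passed changed sign without 1 array, with ranges of 0.00 to 0.24, -0.05 to 0.13 and -0.08 to 0.15. The causes were not tested. Same-numbered arrays shared a slide, and their deviations correlated at 0.25, 0.002 and 0.101 over all probes and at 0.174, 0.179 and 0.259 over the noncoding probes. As 1 pair did not reach 0.1 over all probes, the numbers were not taken to pair the samples. With the replicate block, 25 probes were higher and 8 lower at any fold, 31 of the 33 being the same, and 2-fold calls stayed at 3 and 4. Cy5 of control replicate 3, with 69.0% of probes flagged, limits what its detection shows.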
